A study of Arabidopsis thaliana with 16 samples.

Results

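The comparison described here set zone 3 against zone 2 of Arabidopsis thaliana seedling roots on standard medium, the step at which root cells leave the meristem and begin to elongate. Its members are 4 of the 16 arrays of the series, taken by their titles: 2 of longitudinal zone 3 and 2 of longitudinal zone 2, both under standard conditions. All 4 hold total RNA of Columbia roots that grew for 5 days before transfer to fresh standard medium, a Murashige and Skoog salt medium with Fe(III)-EDTA as its iron. The -Fe arrays, used below for a second measurement of the same step, came from roots moved to medium with no iron salt and 0.3 mM of the iron chelator Ferrozine. Zone 2 was the piece of about 200 µm that began about 150 µm from the tip and stopped where the root turns less dense to light, near the upper limit of the meristem. Zone 3 was the next 200 to 300 µm, cut off before the first root hairs emerge. About 15 roots were pooled per array, so each array averages over roots and over all cell types of the piece. No mutant, transgene or cell sort is named, and plants of every group carried the same genotype. The sample descriptions give 1 h after transfer for standard roots and 24 h for -Fe roots, and the protocol gives 24 h for all roots. The 2 zones compared here share a time whichever is right. Whether the replicate pools were grown and cut apart is not given. The p-values rest on 1 spread per probe set, shared by all 8 groups of 2 pools, technical spread included.

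Cells of the root meristem pass through repeated rounds of DNA synthesis and division and make ribosomes at a high rate. On leaving the meristem they stop dividing, often copy their DNA without dividing, take up water into a growing central vacuole and lengthen as the wall is loosened by expansins and xyloglucan-remodelling enzymes. Epidermal cells that will bear hairs, vessel cells of the xylem and cells of the endodermis then begin to build their own specialised walls.

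Values are the deposited array intensities in linear units, given for replicate 1 and then replicate 2. A step is the zone 3 minus zone 2 difference of mean log2(intensity + 7.73), given ± SE from a limma fit over all 16 arrays with Benjamini-Hochberg adjusted p-values. A probe set is called when its adjusted p lies under 0.05. The added 7.73 units shrink the step of dim probe sets, so steps that start from a few units are smaller than the intensity ratio. Median intensities of the 4 arrays ran from 53.0 to 76.0 units. The 25S ribosomal control read 5515 and 4357 units in zone 2 and 3495 and 3400 in zone 3. The ratio of 3' to 5' signal of the actin control was 28.4 and 44.2 in zone 2 and 20.8 and 25.3 in zone 3, and a second actin control pair gave 4.87 and 3.93 against 6.95 and 7.43. A GAPDH pair separated the zones, at 2.19 and 2.1 in zone 2 and 2.62 and 2.48 in zone 3, and a second overlapped, at 1.51 and 1.75 against 1.64 and 2.16. The ubiquitin ratios of zone 2 (5.85 and 6.31) lay inside the range of zone 3 (5.52 and 6.49), while a second ubiquitin pair was higher in zone 2, at 3.63 and 4.79 against 2.78 and 3.55. The part of these controls in the results below was not tested.

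Replicates of a zone differed in transcripts that also differ along the root. On the -Fe arrays, which share no RNA with the 4 arrays compared, 1632 probe sets were called higher in zone 3 by more than 2 log2. Over these, zone 2 replicate 1 exceeded zone 2 replicate 2 by a median of 0.88 log2 and was the higher array for 89.9%. Over the same probe sets zone 3 replicate 1 exceeded zone 3 replicate 2 by a median of 0.59 log2 and was the higher array for 75.9%. Zone 3 replicate 1 stood further apart along the step to zone 4. Over 393 probe sets more than 2 log2 higher in zone 4 than in zone 3 on -Fe medium, it exceeded zone 3 replicate 2 by a median of 1.85 log2 and was the higher array for 93.6%. Over 410 probe sets lower in zone 4 by the same margin it was the higher array for 10.2%. Zone 2 replicate 1 thus carried more of the transcripts of zone 3, and zone 3 replicate 1 more of those of zone 4, than their partners. The part of these shifts in the steps was not tested beyond leaving the arrays out. Across all probe sets tested the replicates correlated at r = 0.955 in zone 2 and 0.921 in zone 3. The SD of the replicate difference was 0.634 log2 in zone 2 and 0.829 in zone 3, and 0.495 to 0.66 in the other groups. The shared spread averages over all groups, so the SE can understate the spread of the zone 3 pools. Steps of named genes that lost their call, or moved by more than 1.5 times, without 1 of the 4 arrays are given below with the value without it, with the step in brackets in log2 where it follows the name of an array. Counts of lists, and the medians printed with them, are treated likewise.

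The zones differed widely, with about as many probe sets called as not. Of 16505 probe sets tested, 3774 (22.9%) were higher in zone 3 and 4475 (27.1%) lower, 50.0% in all. By limma's treat test, steps larger than 1 log2 numbered 1106 higher (6.7%) and 994 lower (6.02%). The 3774 and 4475 calls became 2318 and 2927 without zone 2 replicate 2. The middle 50% of all steps lay between -0.89 and 0.86 log2, with a median of -0.06. The 2 arrays of one zone did not overlap the 2 of the other for 72.8% of probe sets. Among the 9091 genes with a single-gene probe set, 2051 were higher (22.6%) and 2571 lower (28.3%), 50.8% in all. Those 2 shares are the background for every list below, in which each gene is represented by 1 probe set. In pieces of whole root, fewer cells of a type and less RNA per cell cannot be told apart, and no step below distinguishes them.

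**Figure D1:**
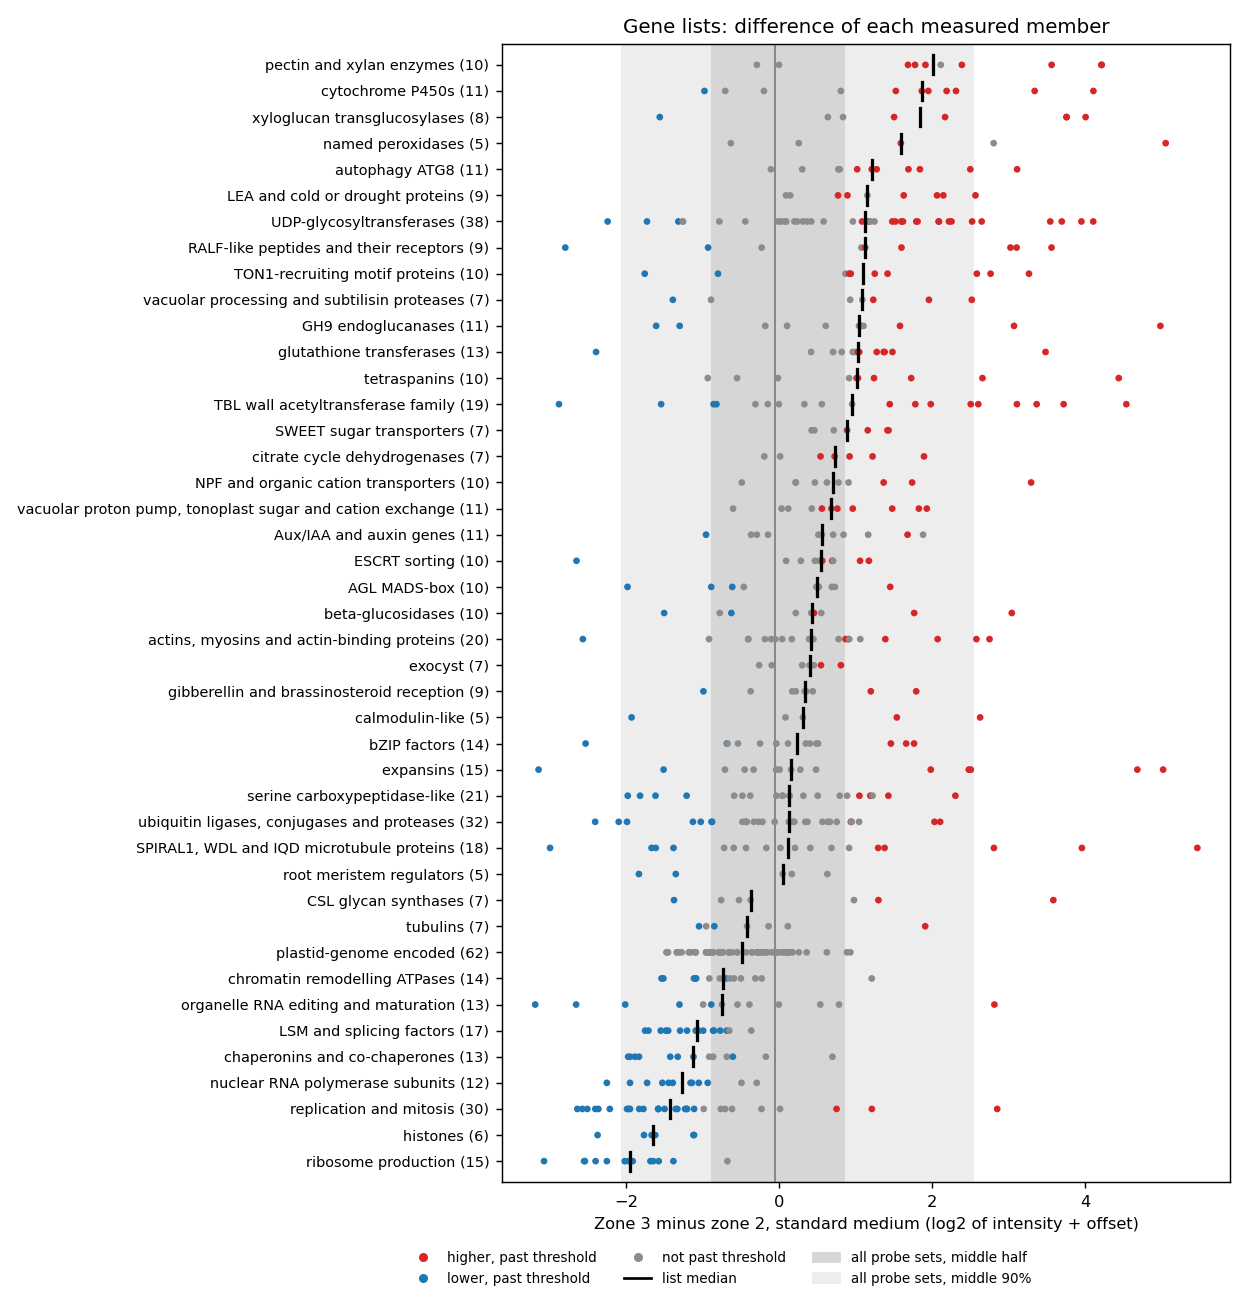
Steps of the members of each gene list with at least 5 members tested, in log2 of zone 3 over zone 2 on standard medium. Each point is 1 gene, the bar is the median of the list, and the shaded bands hold the middle 50% and the middle 90% of all 16505 probe sets. Ribosome production, histones, and replication and mitosis have the lowest medians, and pectin and xylan enzymes the highest.

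Genes of DNA replication, mitosis and cytokinesis fell, but not all of them. Of 30 tested, 21 fell, 3 rose and 6 passed neither way, with a median step of -1.43 and a range of -2.64 to 2.85. TOPII, the topoisomerase that untangles sister DNA molecules, read 239.5 and 330.4 units in zone 2 and 53.2 and 34.5 in zone 3. Both zone 3 arrays lay far below both zone 2 arrays, and the gene fell by 2.51 ± 0.34 (adjusted p = 0.000129). BUB3.1, a spindle checkpoint protein, read 410.1 and 592 units in zone 2 and 81.1 and 71.5 in zone 3. It fell by 2.58 ± 0.37 (adjusted p = 0.000175). 3xHMG-box2, a DNA-binding protein of condensed chromosomes, read 307 and 624 units in zone 2 and 58.5 and 69.3 in zone 3 and fell by 2.64 ± 0.50 (adjusted p = 0.000985). Its zone 3 values were a small share of the zone 2 values on every array. Of the genes of the division plane, some were not called. TON1B, part of the complex that marks the plane on the cortex, read 597 and 495 units in zone 2 and 541 and 554 in zone 3, with a step of 0.01 ± 0.20 (adjusted p = 0.973). TPLATE, an endocytic adaptor at the cell plate, had a step of -0.71 ± 0.39 (adjusted p = 0.144). The 3 that rose were KEU, a vesicle-fusion regulator of the cell plate, by 0.75 ± 0.20 (adjusted p = 0.00841), SKP2A, an F-box protein, by 1.21 ± 0.37 (adjusted p = 0.0153), and ATMAP65-6, a microtubule cross-linker. ATMAP65-6 read 359 and 216 units in zone 2 and 1822 and 2319 in zone 3 and rose by 2.85 ± 0.37 (adjusted p = 0.000101). SKP2A was not called without zone 2 replicate 1 (0.92) or zone 3 replicate 1 (0.78).

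Histone genes fell without exception among those measured. All 6 of 8 annotated members that passed the filter on dim probe sets were lower in zone 3, with a median step of -1.65. HTB4, a histone H2B gene and the brightest of the list, read 2683 and 3342 units in zone 2 and 949 and 923 in zone 3. The replicates of each zone lay close together, and the gene fell by 1.67 ± 0.18 (adjusted p = 5.15e-05). HTB2, another H2B gene, read 206 and 348 units in zone 2 and 46.9 and 43.9 in zone 3 and fell by 2.38 ± 0.31 (adjusted p = 0.000105). HTB1 fell by 1.77 ± 0.25 and HTB11 by 1.12 ± 0.18. The linker histone HON4 read 519 and 534 units in zone 2 and 169 and 163 in zone 3, a fall of 1.62 ± 0.26 (adjusted p = 0.000322). HTR12, the centromeric histone H3 and also a member of the replication list, read 55.3 and 81.7 units in zone 2 and 29.1 and 24.9 in zone 3 and fell by 1.11 ± 0.38 (adjusted p = 0.0262). HTR12 was not called without zone 2 replicate 2 (-0.86), zone 3 replicate 1 (-1.2) or zone 3 replicate 2 (-1.03).

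Genes of ribosome production fell almost throughout. Of 15 members tested, 14 fell and none rose, with a median step of -1.95 and a range of -3.08 to -0.68, and the count stayed at 14 or 15 without any 1 of the 4 arrays. PRH75, a nucleolar RNA helicase, read 1029 and 2204 units in zone 2 and 163 and 181 in zone 3. Zone 2 replicate 2 lay above replicate 1, and both lay well above zone 3. The gene fell by 3.08 ± 0.43 (adjusted p = 0.000141). PES (AT5G14520), the plant Pescadillo of large-subunit assembly, read 2655 and 4069.6 units in zone 2 and 526 and 592 in zone 3 and fell by 2.54 ± 0.43 (adjusted p = 0.000471). RH57 (AT3G09720), another helicase of ribosomal RNA processing, fell by 2.55 ± 0.34 (adjusted p = 0.000116). NLE (AT5G52820), the plant Notchless, read 676 and 1051 units in zone 2 and 333 and 120.98 in zone 3 and fell by 2.02 ± 0.49 (adjusted p = 0.00418). PGY1, a protein of the large ribosomal subunit, read 3044 and 3712 units in zone 2 and 1009.5 and 1245 in zone 3. It fell by 1.58 ± 0.18 (adjusted p = 6.13e-05), with replicates close together. The step of NLE was -1.32 without zone 3 replicate 2.

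Subunits of the nuclear RNA polymerases fell with them. Of 12 tested, 10 fell and none rose, with a median of -1.28. The 2 largest subunits of polymerase I, the enzyme of ribosomal RNA, are counted in both lists. NRPA2 read 598 and 841 units in zone 2 and 155 and 131 in zone 3 and fell by 2.26 ± 0.33 (adjusted p = 0.000176), and NRPA1 fell by 1.95 ± 0.40 (adjusted p = 0.00162). NRPC2, of polymerase III, which makes transfer RNA and 5S RNA, read 359.9 and 474 units in zone 2 and 139 and 102 in zone 3. It fell by 1.73 ± 0.30 (adjusted p = 0.000542). NRPB12 and NRPB6A, small subunits, fell by 1.39 ± 0.30 and 0.94 ± 0.20. Their zone 3 arrays lay below both zone 2 arrays. NRPB6B fell by 1.53 ± 0.24 (adjusted p = 0.000306) on standard medium, and its step on -Fe medium was -0.45 (adjusted p = 0.144).

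Splicing factors, chromatin remodellers and chaperones also went down. Of 17 LSM and splicing factors, 15 fell and none rose, with a median of -1.08 and a range of -1.76 to -0.37; without zone 2 replicate 2 the count was 10. MAC3A and MAC3B, paired subunits of a splicing-associated complex, moved alike. MAC3A read 684 and 908 units in zone 2 and 285 and 244 in zone 3 and fell by 1.55 ± 0.22 (adjusted p = 0.000159). MAC3B read 1268 and 1515 units in zone 2 and 459 and 546 in zone 3 and fell by 1.45 ± 0.20 (adjusted p = 0.00015). LSM3A and LSM6A, subunits of the Sm-like rings that hold U6 RNA, fell by 1.76 ± 0.32 and 1.71 ± 0.35, and Y14 of the exon junction complex by 1.00 ± 0.20. The 2 members that were not called include LSM1A, of cytoplasmic mRNA decay, at -0.66 ± 0.35 (adjusted p = 0.133). Among 14 chromatin remodelling genes, 6 fell and none rose, a share above the 28.3% of all genes but with 8 not called. CHR17, an ISWI-type ATPase, read 513 and 721 units in zone 2 and 202 and 214 in zone 3 and fell by 1.52 ± 0.25 (adjusted p = 0.000419). BSH, the plant SNF5 protein, fell by 1.54 ± 0.29 (adjusted p = 0.00101).

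Of 13 chaperonins and co-chaperones, 8 fell and none rose. Cpn60beta2, a plastid chaperonin subunit, read 1664 and 2208 units in zone 2 and 547 and 439.5 in zone 3. It fell by 1.95 ± 0.25 (adjusted p = 9.93e-05), and Cpn60beta3, its close relative, by 1.43 ± 0.29. Hop1, which links HSP70 to HSP90, read 683 and 773 units in zone 2 and 158 and 229.9 in zone 3 and fell by 1.89 ± 0.30 (adjusted p = 0.000311). Hop2 fell by only 0.61 ± 0.18 (adjusted p = 0.0125). BOB1, a small heat-shock-like protein needed for meristem growth, fell by 1.33 ± 0.23 (adjusted p = 0.000513). Genes of organelle RNA editing and maturation, a list drawn by name that holds pentatricopeptide proteins and a few other plastid proteins, fell more often than rose. Of 13 tested, 5 fell and 1 rose; without zone 2 replicate 2 the counts were 3 and 0. The organelle list gave 2 rises without zone 3 replicate 2. Its rise was that of NdhS, a subunit of the plastid NDH complex, which read 19.8 and 2.21 units in zone 2 and 125 and 93.6 in zone 3 and rose by 2.81 ± 0.77 (adjusted p = 0.00913). The falls of the mitochondrial proteins PPR596 and PPR336 were large. PPR596 read 893 and 1576 units in zone 2 and 112 and 135 in zone 3 and fell by 3.19 ± 0.43 (adjusted p = 0.000116). PPR336 read 874 and 759 units in zone 2 and 126 and 119 in zone 3 and fell by 2.66 ± 0.34 (adjusted p = 0.000105). Transcripts of the plastid genome itself gave a single call among 62 tested, the protease subunit clpP, which fell by 1.1 ± 0.34 (adjusted p = 0.0171). The median of that list was -0.49, and leaving out 1 array gave 0 falls without zone 2 replicate 2 or zone 3 replicate 2, a median of -0.17 without zone 2 replicate 1 and a median of -0.15 without zone 3 replicate 2. Hop2 was not called without zone 2 replicate 1 (-0.59), zone 2 replicate 2 (-0.63) or zone 3 replicate 1 (-0.56). NdhS was not called without zone 2 replicate 2 (2.08). clpP was not called without zone 2 replicate 2 (-1.06), zone 3 replicate 1 (-1.14) or zone 3 replicate 2 (-1.05).

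Ubiquitin enzymes followed no common direction. Of 32 tested, 7 fell and 3 rose. UBC20, a conjugase related to those that mark mitotic cyclins for destruction, read 598 and 982 units in zone 2 and 142 and 134 in zone 3. The zone 3 values were a small share of those in zone 2, and it fell by 2.41 ± 0.37 (adjusted p = 0.00026). The ligase PUB22 read 253 and 80.4 units in zone 2 and 649.9 and 637 in zone 3 and rose by 2.1 ± 0.48 (adjusted p = 0.003). UBC28, the brightest member, read 2929 and 2360.5 units in zone 2 and 2805 and 2934 in zone 3, with overlapping zones and a step of 0.13 ± 0.20 (adjusted p = 0.63). Without zone 2 replicate 2 the list gave 4 lower and 2 higher, and without zone 3 replicate 2 it gave 7 higher. The step of PUB22 was 1.32 without zone 2 replicate 2.

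**Figure D2:**
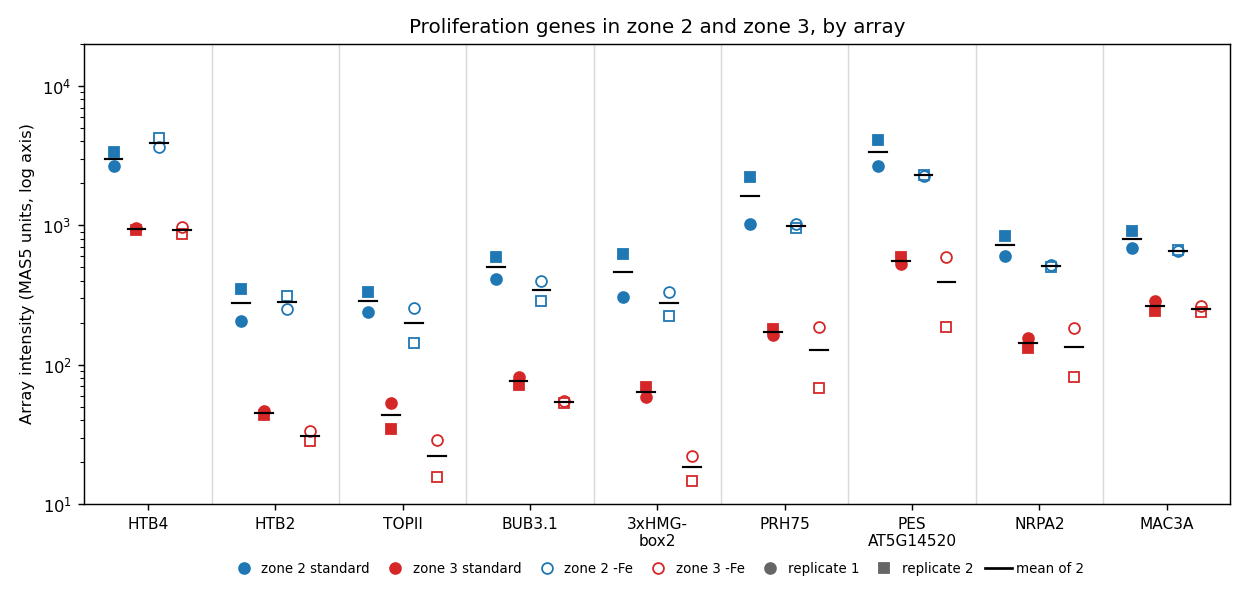
Intensity (log axis, array units) of 9 genes of division, histones, ribosome production, transcription and splicing on the zone 2 and zone 3 arrays, 1 point per array, standard medium beside -Fe medium. The genes are HTB4, HTB2, TOPII, BUB3.1, 3xHMG-box2, PRH75, PES, NRPA2 and MAC3A. In all 9 the zone 3 points of standard medium lie below the zone 2 points.

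Wall-loosening genes moved in both directions. Of 15 expansins tested out of 19 annotated, 5 rose and 2 fell; the median step was 0.15, and -0.11 after quantile normalization. EXPA7 and EXPA18, known from root hair cells, are members of the root hair list as well. EXPA7 read 397 and 31.1 units in zone 2 and 3218 and 3194 in zone 3. EXPA18 read 248 and 30.7 units in zone 2 and 3270.1 and 3145 in zone 3. Their zone 3 arrays agreed closely, whereas zone 2 replicate 1 lay far above replicate 2. The step of EXPA7 was 4.68 ± 0.80 with both zone 2 arrays, 6.37 without replicate 1 and 2.99 without replicate 2. EXLA1, an expansin-like gene, read 145 and 52.4 units in zone 2 and 846 and 337 in zone 3 and rose by 2.50 ± 0.60 (adjusted p = 0.00419). EXPA15 ran the other way, at 399 and 1093 units in zone 2 and 72.4 and 63.4 in zone 3, and fell by 3.15 ± 0.39 (adjusted p = 8.36e-05). EXPA9 read 479.5 and 467 units in zone 2 and 125 and 206 in zone 3 and fell by 1.51 ± 0.29 (adjusted p = 0.00113). EXPB1 separated the replicates more than the zones, at 319.9 and 599 units in zone 2 and 176 and 1570.4 in zone 3, with a step of 0.27 ± 0.83 (adjusted p = 0.804). With zone 2 replicate 2 left out the list gave 2 higher and 2 lower, and leaving out 1 array gave a median of 0.04 without zone 2 replicate 1, a median of 0.53 without zone 2 replicate 2, a median of 0.02 without zone 3 replicate 1 and a median of 0.09 without zone 3 replicate 2. EXLA1 was not called without zone 2 replicate 2 (1.83).

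Xyloglucan transglucosylases, which cut and rejoin the tethers between cellulose fibrils, mostly rose. Of 8 tested, 5 rose and 1 fell, with a median of 1.83 and a range of -1.56 to 4.00. XTH21 read 135 and 36.9 units in zone 2 and 1280.1 and 1261 in zone 3, and XTH18 read 301 and 41.0 units in zone 2 and 1204 and 2259 in zone 3. All 4 zone 3 values stood above the zone 2 values of their gene, with steps of 4.00 ± 0.52 (adjusted p = 0.000106) and 3.76 ± 0.81 (adjusted p = 0.00214). XTH33, a membrane-anchored form, read 84.0 and 7.97 units in zone 2 and 591 and 429 in zone 3 and rose by 3.75 ± 0.70 (adjusted p = 0.000861). EXGT-A3, also named XTH27 and known from vascular cells, rose by 1.5 ± 0.40 (adjusted p = 0.00733), and XTH20 by 2.17 ± 0.67 (adjusted p = 0.0177). XTH16 fell, from 1268 and 996 units to 246 and 569.6, by 1.56 ± 0.42 (adjusted p = 0.00759). XTH19 and XTH32 were not called, at 0.63 ± 0.69 and 0.83 ± 0.56. Leaving out zone 2 replicate 2 gave 3 higher, and the list had 0 falls without zone 3 replicate 1. The step of XTH18 was 2.42 without zone 2 replicate 2. The step of XTH33 was 2.48 without zone 2 replicate 2. EXGT-A3 was not called without zone 2 replicate 2 (0.95). XTH20 was not called without zone 2 replicate 2 (1.81) or zone 3 replicate 1 (1.34). XTH16 was not called without zone 3 replicate 1 (-0.97).

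Among 11 glucanases of family GH9, 4 rose and 2 fell. GH9C1 read 269 and 19.9 units in zone 2 and 2899 and 2621 in zone 3. It rose by 4.98 ± 0.80 (adjusted p = 0.00034), and zone 2 replicate 1 lay far above its partner. GH9B17 read 63.0 and 12.2 units in zone 2 and 325 and 290.0 in zone 3 and rose by 3.07 ± 0.79 (adjusted p = 0.00632). Within the same subfamily GH9C2 fell, from 681 and 635 units to 113 and 385, by 1.61 ± 0.49 (adjusted p = 0.015), and GH9C3 fell by 1.30 ± 0.31 (adjusted p = 0.00427). CSLC12, a glucan synthase of the family that makes the xyloglucan backbone, read 23.3 and 22.3 units in zone 2 and 269.9 and 474 in zone 3. It rose by 3.58 ± 0.40 (adjusted p = 5.85e-05), the largest step of 7 cellulose synthase-like genes, of which 2 rose and 1 fell. ATCSLC08 fell by 1.38 ± 0.33 (adjusted p = 0.00436). CSLC04, of the same family, read 1309.7 and 902 units in zone 2 and 399.9 and 1015 in zone 3. Zone 3 replicate 2 fell between the zone 2 arrays, with a step of -0.76 ± 0.43 (adjusted p = 0.155). CSLD2, which works at the tip of root hairs, read 1252 and 813 units in zone 2 and 2027 and 3053 in zone 3 and rose by 1.29 ± 0.28 (adjusted p = 0.00235). The GH9 list gave 2 rises without zone 2 replicate 2 and 1 fall without zone 2 replicate 1, zone 2 replicate 2 or zone 3 replicate 1. The cellulose synthase-like list gave 0 falls without zone 2 replicate 2 and 3 falls without zone 3 replicate 2. The step of GH9C1 was 3.32 without zone 2 replicate 2. GH9B17 was not called without zone 2 replicate 2 (2.16). GH9C2 was not called without zone 2 replicate 1 (-1.56), zone 2 replicate 2 (-1.66) or zone 3 replicate 1 (-0.76), and its step was -2.46 without zone 3 replicate 2. ATCSLC08 was not called without zone 2 replicate 2 (-1.12).

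TBL genes, several of which acetylate wall polysaccharides, rose more often than fell. Of 19 tested, 9 rose and 4 fell, with a median of 0.95 and a range of -2.88 to 4.54. TBL41 read 177 and 18.8 units in zone 2 and 1819 and 1439 in zone 3 and rose by 4.54 ± 0.60 (adjusted p = 0.000108). TBL38 read 332 and 85.8 units in zone 2 and 2389 and 2283 in zone 3 and rose by 3.72 ± 0.54 (adjusted p = 0.000183). TBL34, a xylan acetyltransferase, rose by 3.36 ± 0.39 (adjusted p = 6.4e-05). TBL36 and TBL35 moved down. TBL36 read 311 and 511 units in zone 2 and 59.3 and 37.7 in zone 3 and fell by 2.88 ± 0.48 (adjusted p = 0.000405), and TBL35 fell by 1.55 ± 0.21 (adjusted p = 0.000135). The list gave 2 lower without zone 2 replicate 2, and a median of 1.5 without zone 2 replicate 1 and a median of 0.51 without zone 2 replicate 2.

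Most enzymes of pectin and xylan on a list drawn by name rose. Genes of such enzymes that carry no such name in the annotation are outside it, so its counts do not describe the whole families. Of 10 tested out of 15 annotated, 7 rose and none fell, with a median of 2.01 and a range of -0.29 to 4.21, against 22.6% of all genes. The pectin methylesterase genes PMEPCRF and ATPMEPCRD went up from low levels. PMEPCRF read 99.3 and 19.2 units in zone 2 and 1533 and 631 in zone 3 and rose by 4.21 ± 0.56 (adjusted p = 0.000117). ATPMEPCRD read 38.6 and 3.15 units in zone 2 and 606 and 275 in zone 3 and rose by 4.21 ± 0.58 (adjusted p = 0.00014). IRX15-L, needed for xylan of normal length, read 42.9 and 17.4 units in zone 2 and 466 and 366 in zone 3. It rose by 3.56 ± 0.51 (adjusted p = 0.000166). IRX15-L, IRX15 and GUT2 are counted in the secondary wall list as well. ATXYN2 (AT1G10050), a xylanase-like gene, read 110.4 and 77.7 units in zone 2 and 412 and 331 in zone 3 and rose by 1.91 ± 0.24 (adjusted p = 8.96e-05). GUT1, a xylan backbone enzyme, read 871 and 902 units in zone 2 and 559 and 931 in zone 3. It was not called, at -0.29 ± 0.25 (adjusted p = 0.347). The list gave 1 fall without zone 3 replicate 2 and a median of 1.32 without zone 3 replicate 1.

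The 5 peroxidases named by the annotation gave 2 increases, which were lost without zone 2 replicate 2 or without zone 3 replicate 1. Peroxidase genes that the annotation does not name as such are outside this list, so its counts do not describe the whole family. PRX72 (AT5G66390), known from lignin formation, read 505 and 7.56 units in zone 2 and 5121 and 1671 in zone 3. In both zones replicate 1 lay far above replicate 2, and the step was 5.05 ± 1.45 (adjusted p = 0.0117). PRX25 (AT2G41480) read 13.4 and 9.67 units in zone 2 and 70.6 and 34.6 in zone 3 and rose by 1.59 ± 0.45 (adjusted p = 0.0114). PRX71 (AT5G64120) was high on zone 3 replicate 1 alone, at 57.2 and 7.48 units in zone 2 and 1494 and 24.3 in zone 3, with a step of 2.80 ± 1.23 (adjusted p = 0.0757). PRXR1, the brightest, read 6057 and 5720.3 units in zone 2 and 4761 and 3016 in zone 3, with a step of -0.63 ± 0.27 (adjusted p = 0.0649). The peroxidase list gave 1 fall without zone 3 replicate 1. Of SKU5 and its similar genes, multicopper oxidase-like wall proteins, those that fell numbered 2 of 3 members. sks15 read 632 and 642 units in zone 2 and 7.01 and 35.5 in zone 3 and fell by 4.68 ± 0.51 (adjusted p = 5.44e-05). sks16 read 98.1 and 99.4 units in zone 2 and 18.6 and 16.4 in zone 3 and fell by 2.08 ± 0.42 (adjusted p = 0.00144), whereas SKU5 itself had a step of 0.00 ± 0.36 (adjusted p = 1). PRX72 was not called without zone 2 replicate 2 (2.52) or zone 3 replicate 1 (4.24), and its step was 7.58 without zone 2 replicate 1. PRX25 was not called without zone 2 replicate 2 (1.45) or zone 3 replicate 1 (1.14).

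RALF peptides, secreted signals that act on wall-sensing receptor kinases, split by member. Of 9 peptides and receptors tested, 5 rose and 2 fell. RALFL22 read 516 and 324 units in zone 2 and 3096 and 3682 in zone 3 and rose by 3.02 ± 0.33 (adjusted p = 5.84e-05). RALFL32 read 159.6 and 89.7 units in zone 2 and 1682 and 703 in zone 3 and rose by 3.1 ± 0.36 (adjusted p = 6.31e-05). RALFL27 and RALFL33 rose as well, by 3.56 ± 0.57 and 1.60 ± 0.36. RALFL34, a ligand of THE1, read 1425 and 1859 units in zone 2 and 134 and 381 in zone 3. It fell by 2.80 ± 0.48 (adjusted p = 0.000494), and RALFL31 fell by 0.93 ± 0.29 (adjusted p = 0.0173). The receptor FER, which binds other RALF peptides, read 1177 and 870.2 units in zone 2 and 2016 and 2426 in zone 3 and rose by 1.12 ± 0.21 (adjusted p = 0.000997). THE1 read 1458 and 734 units in zone 2 and 1339.8 and 3560.3 in zone 3. The high value of zone 3 replicate 2 set it apart from the other arrays, and the step was 1.07 ± 0.50 (adjusted p = 0.0943). The RALF list gave 1 fall without zone 2 replicate 2 or zone 3 replicate 1. RALFL31 was not called without zone 2 replicate 2 (-0.69) or zone 3 replicate 1 (-0.84).

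**Figure D3:**
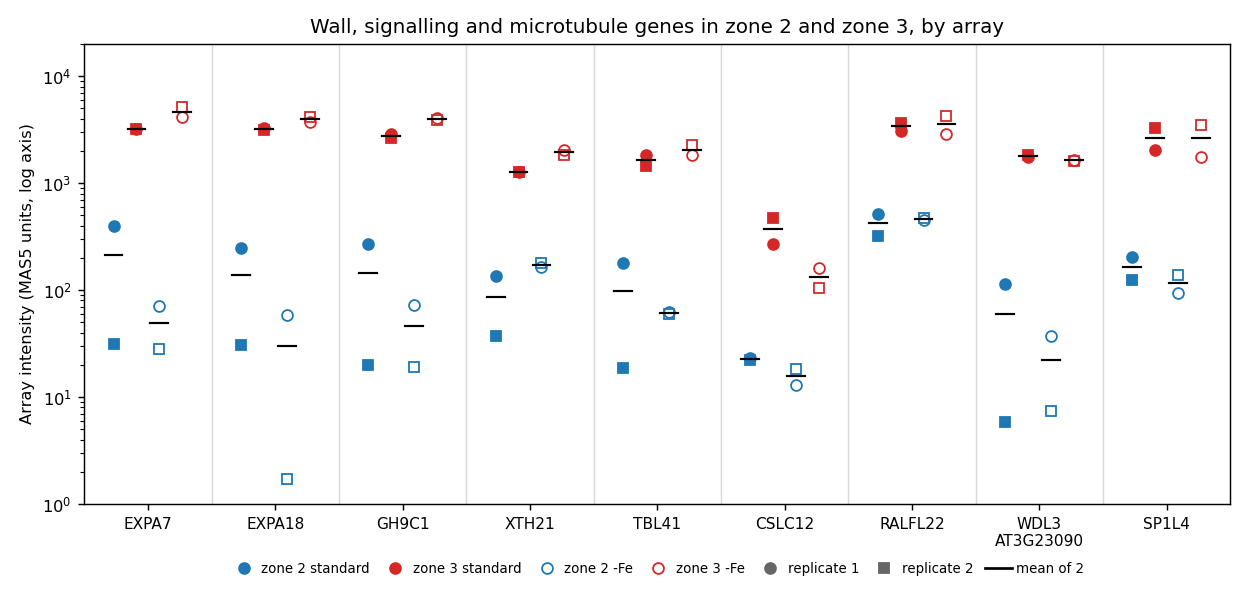
Intensity (log axis, array units) of 9 genes of the wall, its signals and microtubules on the zone 2 and zone 3 arrays, 1 point per array, standard medium beside -Fe medium. The genes are EXPA7, EXPA18, GH9C1, XTH21, TBL41, CSLC12, RALFL22, WDL3 and SP1L4. Zone 2 replicate 1 of standard medium lies above its partner in all 9, by least in CSLC12.

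Tubulin genes did not move as a group. Of 7 tested, 1 rose and 2 fell. TUA6, an alpha-tubulin and the brightest, read 6423 and 5400.1 units in zone 2 and 2891 and 6674 in zone 3, with overlapping zones and a step of -0.42 ± 0.30 (adjusted p = 0.26). TUA1 read 39.4 and 32.8 units in zone 2 and 212 and 114 in zone 3 and rose by 1.91 ± 0.33 (adjusted p = 0.000575). TUB7 and TUB6 fell, by 1.05 ± 0.27 (adjusted p = 0.00618) and 0.85 ± 0.25 (adjusted p = 0.0123). TUB1 had a step of -0.14 ± 0.51 (adjusted p = 0.836). Without zone 3 replicate 2 the list gave 4 lower, and without zone 2 or zone 3 replicate 1 it gave 1. TUB6 was not called without zone 2 replicate 1 (-0.77) or zone 3 replicate 1 (-0.59).

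Proteins that bind microtubules went both ways. In the list of SPIRAL1, WDL and IQD proteins 5 of 18 rose and 4 fell. WDL3 (AT3G23090), a microtubule-stabilising protein, read 114 and 5.90 units in zone 2 and 1748 and 1833 in zone 3 and rose by 5.46 ± 0.79 (adjusted p = 0.000179). SP1L4, of the SPIRAL1 family, read 202 and 125 units in zone 2 and 2045 and 3259 in zone 3 and rose by 3.96 ± 0.47 (adjusted p = 7.26e-05). SPR1, the founding member, read 2426 and 1805 units in zone 2 and 2041 and 2188 in zone 3, a step of 0.01 ± 0.19 (adjusted p = 0.955). Calmodulin-binding IQD genes went both ways, IQD23 up by 2.80 ± 0.28 (adjusted p = 3.51e-05) and IQD18 down by 3.00 ± 0.45 (adjusted p = 0.000233). IQD18 read 112 and 67.1 units in zone 2 and 3.69 and 4.6 in zone 3. Genes with TON1-recruiting motifs rose in 7 of 10 cases and fell in 2; without zone 2 replicate 2 the counts were 4 and 1. TRM21 read 85.7 and 40.2 units in zone 2 and 624 and 646 in zone 3 and rose by 3.26 ± 0.34 (adjusted p = 4.63e-05). TRM25 fell by 1.76 ± 0.35 (adjusted p = 0.00135). The TRM list gave 1 fall without zone 3 replicate 1 or zone 3 replicate 2. The SPIRAL1, WDL and IQD list gave 3 higher without zone 2 replicate 2.

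On the actin side 6 of 20 rose and 1 fell. The single fall and 2 of the rises belonged to the NET family, whose members tie actin to membranes. NET1A read 314 and 295 units in zone 2 and 33.8 and 59.1 in zone 3 and fell by 2.57 ± 0.33 (adjusted p = 0.000105). NET1B read 70.3 and 41.7 units in zone 2 and 465 and 359.8 in zone 3 and rose by 2.75 ± 0.32 (adjusted p = 6.4e-05). WLIM1, an actin-bundling LIM protein, read 297 and 195 units in zone 2 and 1586 and 1371 in zone 3 and rose by 2.58 ± 0.31 (adjusted p = 7.19e-05), and WLIM2a rose by 1.39 ± 0.24 (adjusted p = 0.000613). ACT11, an actin gene, rose by 0.86 ± 0.28 (adjusted p = 0.0231). The actin list gave 2 falls without zone 3 replicate 1. ACT11 was not called without zone 2 replicate 1 (0.90), zone 2 replicate 2 (0.83) or zone 3 replicate 2 (0.58).

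Genes of the growing vacuole moved up by small amounts. Of 11 genes of the vacuolar proton pump, tonoplast sugar carriers and cation exchangers, 7 rose and none fell, with a median of 0.68 and a range of -0.61 to 1.93. Without zone 2 replicate 2 the count was 2, and after median centring 4. Pump subunits were bright in both zones. VHA-F (AT4G02620) read 2444 and 2169 units in zone 2 and 4031 and 4989.9 in zone 3 and rose by 0.96 ± 0.22 (adjusted p = 0.00293). VHA-D (AT3G58730) and VHA-A3 rose by 0.68 ± 0.17 and 0.76 ± 0.20. TMT1, a tonoplast sugar carrier, read 2126 and 1444 units in zone 2 and 1667 and 1917 in zone 3, a step of 0.03 ± 0.34 (adjusted p = 0.95), while TMT2 read 67.5 and 49.3 units in zone 2 and 341 and 170.2 in zone 3 and rose by 1.93 ± 0.35 (adjusted p = 0.00071). Of the SWEET sugar uniporters 4 of 7 rose, and none was called without zone 2 replicate 2 or without zone 3 replicate 1. SWEET17, at the tonoplast, read 333 and 139 units in zone 2 and 710.3 and 488 in zone 3 and rose by 1.41 ± 0.38 (adjusted p = 0.0077). The vacuolar list gave 1 fall without zone 3 replicate 2. VHA-D was not called without zone 2 replicate 2 (0.49). VHA-A3 was not called without zone 2 replicate 2 (0.51). SWEET17 was not called without zone 2 replicate 2 (0.81) or zone 3 replicate 1 (1.15).

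Carriers of nitrate, peptides and organic cations gave 3 increases and no decrease among 10. GTR2, an importer of glucosinolates, read 22.5 and 9.08 units in zone 2 and 389.7 and 115 in zone 3 and rose by 3.29 ± 0.61 (adjusted p = 0.000815). Its partner GTR1 read 727 and 382 units in zone 2 and 1262 and 1485 in zone 3 and rose by 1.36 ± 0.33 (adjusted p = 0.00448). NPF5.13 (AT1G72125) rose by 1.74 ± 0.31 (adjusted p = 0.000684). The organic cation carrier OCT4 read 160.0 and 134 units in zone 2 and 176 and 166 in zone 3, at 0.21 ± 0.28 (adjusted p = 0.548). GTR1 was not called without zone 2 replicate 2 (0.91).

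Autophagy genes, on a list made up mostly of ATG8 genes, rose or stayed uncalled. Of 11 tested, 7 rose and none fell, with a median of 1.21 and a range of -0.11 to 3.11. All 7 rises were of ATG8 genes, and how far their probes cross-react was not tested. ATG8 proteins coat the membrane of the growing autophagosome. ATG8H read 373 and 167 units in zone 2 and 1810.0 and 1157 in zone 3 and rose by 2.50 ± 0.38 (adjusted p = 0.00024). ATG8E read 94.0 and 23.4 units in zone 2 and 734 and 310.3 in zone 3 and rose by 3.11 ± 0.60 (adjusted p = 0.00109). ATG8F rose by 1.84 ± 0.39 (adjusted p = 0.00214), while ATG3, the conjugating enzyme, read 514 and 553 units in zone 2 and 558 and 774 in zone 3 and was not called, at 0.30 ± 0.24 (adjusted p = 0.311). Vacuolar proteases gave fewer calls. GAMMA-VPE, which matures vacuolar proteins, read 250.3 and 178 units in zone 2 and 1466 and 1057 in zone 3. It rose by 2.52 ± 0.30 (adjusted p = 7.62e-05), and 3 of the 7 processing and subtilisin proteases rose in all. The subtilisin ARA12 fell, from 1181 and 1266 units to 350.1 and 606, by 1.39 ± 0.29 (adjusted p = 0.00187).

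Sorting and secretion genes gave small steps in most members. Among 10 genes of endosomal sorting, 4 rose and 1 fell, and without zone 2 replicate 2 the rises numbered 2. VPS2.1 read 793 and 559.8 units in zone 2 and 1431 and 1357 in zone 3 and rose by 1.06 ± 0.19 (adjusted p = 0.000713). VPS2.2 read 159.7 and 407 units in zone 2 and 22 and 51.3 in zone 3 and fell by 2.65 ± 0.47 (adjusted p = 0.000627). The exocyst, which tethers vesicles at the plasma membrane, gave 2 small increases among 7, SEC15B by 0.80 ± 0.25 (adjusted p = 0.0184) and EXO84B by 0.54 ± 0.21 (adjusted p = 0.0428). The exocyst list gave 1 rise without zone 2 replicate 1 and 0 rises without zone 2 replicate 2 or zone 3 replicate 2. Tetraspanins, membrane proteins of signalling domains and vesicles, rose in 6 of 10 cases, with 3 without zone 2 replicate 1 and 2 without zone 3 replicate 1, and with 1 fall without zone 3 replicate 2. TET12 read 39.3 and 6.79 units in zone 2 and 629.5 and 495 in zone 3 and rose by 4.44 ± 0.61 (adjusted p = 0.000132). TET8 read 399 and 163 units in zone 2 and 2517 and 1082 in zone 3 and rose by 2.66 ± 0.42 (adjusted p = 0.000302). SEC15B was not called without zone 2 replicate 2 (0.67) or zone 3 replicate 2 (0.52). EXO84B was not called without zone 2 replicate 1 (0.50), zone 2 replicate 2 (0.59) or zone 3 replicate 2 (0.31).

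Enzymes that modify small molecules rose more often than fell. Of 38 UDP-glycosyltransferases tested, 18 rose and 3 fell. The rises numbered 9 without zone 2 replicate 2 and 11 without zone 3 replicate 1, and the falls 1 without zone 2 replicate 2. UGT72E2 and UGT72E3 put glucose on lignin precursors, and both rose. UGT72E1, of the same group by name, was not called, at -1.26 ± 0.62 (adjusted p = 0.108). UGT72E3 read 68.0 and 14.3 units in zone 2 and 789 and 492 in zone 3, a step of 3.95 ± 0.53 (adjusted p = 0.000124). UGT72E2 read 1065 and 713 units in zone 2 and 1996 and 1931 in zone 3, a step of 1.17 ± 0.28 (adjusted p = 0.00434). GT72B1, of the same UGT72 group, read 363 and 51.4 units in zone 2 and 2523 and 1438 in zone 3 and rose by 3.69 ± 0.67 (adjusted p = 0.000741). UGT73D1 read 45.0 and 0.984 units in zone 2 and 434 and 299.8 in zone 3 and rose by 4.10 ± 0.67 (adjusted p = 0.000354). UGT85A2 fell, from 1409 and 1283 units to 255 and 302, by 2.25 ± 0.39 (adjusted p = 0.000592). Close relatives such as these share sequence, and how far their probes cross-react was not tested. UGT72E2 was not called without zone 2 replicate 2 (0.88). The step of GT72B1 was 2.37 without zone 2 replicate 2.

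Cytochrome P450s gave 7 increases and 1 decrease among 11 of 24 annotated genes, with 4 increases without zone 3 replicate 1 and 0 falls without zone 2 replicate 1, zone 2 replicate 2 or zone 3 replicate 2. CYP71B34 read 34.3 and 16 units in zone 2 and 357 and 272 in zone 3 and rose by 3.34 ± 0.36 (adjusted p = 5.44e-05). CYP71B29 read 15.5 and 1.65 units in zone 2 and 260.0 and 234 in zone 3 and rose by 4.11 ± 0.51 (adjusted p = 8.58e-05). Glutathione transferases rose in 7 of 13 cases and fell in 1, but the rises numbered 2 without zone 2 replicate 2, 3 without zone 3 replicate 1 and 11 without zone 3 replicate 2. GSTU28 read 286 and 88.4 units in zone 2 and 1575 and 2211 in zone 3 and rose by 3.48 ± 0.57 (adjusted p = 0.000393). GSTU25 and GSTU22 were bright but split the zone 3 replicates. GSTU25 read 1243 and 785 units in zone 2 and 3607 and 718 in zone 3, a step of 0.70 ± 0.69 (adjusted p = 0.417). ATGSTF13 read 124 and 201 units in zone 2 and 16.1 and 33.9 in zone 3 and fell by 2.4 ± 0.46 (adjusted p = 0.00106).

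Beta-glucosidases and carboxypeptidase-like proteins went both ways. Of 10 beta-glucosidases 3 rose and 2 fell, and of 21 serine carboxypeptidase-like genes 4 rose and 4 fell. PYK10, the glucosidase of root ER bodies, was bright everywhere, at 5828 and 4579.7 units in zone 2 and 6648 and 7519 in zone 3. Its step of 0.45 ± 0.18 (adjusted p = 0.048) was near the threshold. BGLU46, active on lignin precursor glucosides, read 32.5 and 11.5 units in zone 2 and 404 and 119 in zone 3 and rose by 3.04 ± 0.49 (adjusted p = 0.000361). BGLU15 read 728 and 532 units in zone 2 and 2222 and 2043 in zone 3 and rose by 1.76 ± 0.26 (adjusted p = 0.000188). The carboxypeptidase-like gene scpl48 read 249 and 207 units in zone 2 and 1773 and 745 in zone 3 and rose by 2.30 ± 0.36 (adjusted p = 0.000269), and scpl42 fell by 1.98 ± 0.25 (adjusted p = 0.000101). Falls of beta-glucosidases numbered 1 without zone 2 replicate 1, 0 without zone 2 replicate 2 and 1 without zone 3 replicate 2. Rises of the carboxypeptidase-like genes numbered 2, 1 and 2 without zone 2 replicate 1, zone 2 replicate 2 and zone 3 replicate 1. PYK10 was not called without zone 2 replicate 2 (0.28), zone 3 replicate 1 (0.54) or zone 3 replicate 2 (0.36).

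Mitochondrial dehydrogenases of the citrate cycle and its entry rose by modest amounts in 5 of 7 cases, with none falling. Without zone 2 replicate 2, and without zone 3 replicate 2, the count was 3. IDH-V, an isocitrate dehydrogenase subunit, read 2573 and 2327 units in zone 2 and 4162 and 3927 in zone 3 and rose by 0.72 ± 0.17 (adjusted p = 0.00402). IDH-VI read 954 and 662 units in zone 2 and 1981 and 1744 in zone 3 and rose by 1.22 ± 0.20 (adjusted p = 0.000329). SDH1-2, a succinate dehydrogenase subunit, rose from a low level by 1.89 ± 0.42 (adjusted p = 0.00253), whereas the bright SDH1-1 read 3504 and 3451 units in zone 2 and 2674 and 3439 in zone 3. All 4 values lay close together apart from zone 3 replicate 1, with a step of -0.20 ± 0.22 (adjusted p = 0.483). The cytochrome c gene CYTC-1 read 7128 and 7109.8 units in zone 2 and 7461 and 7772 in zone 3, with a step of 0.10 ± 0.15 (adjusted p = 0.626). On the same list CYTC-2 rose by 0.78 ± 0.26 (adjusted p = 0.0247) and CYTC6A fell by 1.77 ± 0.53 (adjusted p = 0.014). Both calls rested on single arrays, and their steps without those arrays are not given here.

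Proteins linked to drying and cold rose in 6 of 9 cases, with none falling and a median of 1.15. The dehydrin COR47 read 2022 and 953 units in zone 2 and 9451 and 7198 in zone 3 and rose by 2.56 ± 0.38 (adjusted p = 0.000212). LTI30, another dehydrin, read 438 and 293 units in zone 2 and 3039 and 759.7 in zone 3. Its zone 3 value was far higher on replicate 1, and it rose by 2.06 ± 0.47 (adjusted p = 0.0031). HIRD11 (AT1G54410) rose by 0.89 ± 0.21 (adjusted p = 0.00336). Among secreted cysteine-rich peptides 1 of 4 rose and 2 fell. PDF2.5, a defensin-like peptide, read 1287 and 1523 units in zone 2 and 41.8 and 158 in zone 3 and fell by 3.96 ± 0.47 (adjusted p = 6.87e-05). LCR68, a gene of the same family, read 909 and 514 units in zone 2 and 4711 and 3046 in zone 3 and rose by 2.46 ± 0.44 (adjusted p = 0.000627). The cysteine-rich list gave 2 rises without zone 3 replicate 2 and 1 fall without zone 2 replicate 2 or zone 3 replicate 1. The step of LTI30 was 1.07 without zone 3 replicate 1. HIRD11 was not called without zone 2 replicate 2 (0.61).

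Auxin genes and genes of gibberellin and brassinosteroid reception were called no more often each way than all genes (22.6% higher, 28.3% lower). Of 11 auxin genes 1 rose and 1 fell, with 3 rises without zone 3 replicate 2 and 0 falls without zone 2 replicate 1, zone 2 replicate 2 or zone 3 replicate 2. WES1, the GH3 enzyme that joins auxin to amino acids, read 48.2 and 29.4 units in zone 2 and 169 and 112 in zone 3 and rose by 1.68 ± 0.28 (adjusted p = 0.000394). IAA30 read 16.1 and 13.8 units in zone 2 and 6.17 and 2.04 in zone 3 and fell by 0.96 ± 0.35 (adjusted p = 0.0369). Its step on -Fe medium was 0.25 (adjusted p = 0.586). ARR15, a cytokinin-induced response regulator and the sole member of its list tested, read 59.2 and 41.9 units in zone 2 and 12.2 and 6.07 in zone 3 and fell by 1.8 ± 0.61 (adjusted p = 0.0269). Of 9 genes of gibberellin and brassinosteroid reception 2 rose and 1 fell. The gibberellin receptor GID1B read 65.6 and 69.9 units in zone 2 and 218 and 124 in zone 3 and rose by 1.2 ± 0.30 (adjusted p = 0.00584). SPY, a repressor of gibberellin signalling, read 354 and 368 units in zone 2 and 169 and 187 in zone 3 and fell by 0.99 ± 0.21 (adjusted p = 0.0021). The brassinosteroid receptor BRL1 rose from very low values, at 10.4 and 0.682 units in zone 2 and 49.6 and 24.0 in zone 3, by 1.79 ± 0.56 (adjusted p = 0.0186). The reception list gave 1 rise without zone 2 replicate 2 and 0 rises without zone 3 replicate 1. IAA30 was not called without zone 2 replicate 1 (-0.89), zone 2 replicate 2 (-1.03) or zone 3 replicate 2 (-0.70). ARR15 was not called without zone 2 replicate 1 (-1.58), zone 2 replicate 2 (-2.01) or zone 3 replicate 2 (-1.53). GID1B was not called without zone 3 replicate 1 (0.81). BRL1 was not called without zone 2 replicate 2 (1.24) or zone 3 replicate 1 (1.36).

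Of 14 bZIP transcription factors 3 rose and 2 fell. bZIP19, a zinc-deficiency regulator, read 602 and 473 units in zone 2 and 1834 and 1820.3 in zone 3 and rose by 1.76 ± 0.22 (adjusted p = 9.9e-05). HYH, a partner of HY5, rose by 1.66 ± 0.42 (adjusted p = 0.00544). BZIP61 read 311 and 281 units in zone 2 and 25.5 and 74.8 in zone 3 and fell by 2.53 ± 0.43 (adjusted p = 0.000493). The bZIP list gave 1 rise without zone 2 replicate 2 and 1 fall without zone 2 replicate 1 or zone 2 replicate 2. Among 10 MADS-box genes tested of 42 annotated, 1 rose and 3 fell. AGL16 read 96.4 and 126 units in zone 2 and 291 and 339 in zone 3 and rose by 1.45 ± 0.24 (adjusted p = 0.000415). AGL21, which acts in lateral root growth, read 195 and 162 units in zone 2 and 125 and 102 in zone 3 and fell by 0.62 ± 0.23 (adjusted p = 0.0437). The MADS-box list gave 3 rises without zone 3 replicate 2, 1 fall without zone 2 replicate 1 or zone 2 replicate 2 and 0 falls without zone 3 replicate 2. Calmodulin-like calcium sensors gave 2 increases and 1 decrease among 5, with 1 rise without zone 2 replicate 2. CML42 read 87.3 and 52.3 units in zone 2 and 386 and 543 in zone 3 and rose by 2.62 ± 0.31 (adjusted p = 6.42e-05). HYH was not called without zone 2 replicate 2 (1.35) or zone 3 replicate 1 (1.25). AGL21 was not called without zone 2 replicate 1 (-0.49), zone 2 replicate 2 (-0.75) or zone 3 replicate 2 (-0.48).

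Markers of cell identity were sparse on the annotated part of the array, and each list below is a small share of the genes listed for its cell type. Of 54 symbols listed for regulators of the root meristem, 5 were tested, and 2 fell, with 1 fall without zone 2 replicate 2 or zone 3 replicate 2. LHW, which promotes vascular cell number, read 444 and 610.2 units in zone 2 and 245 and 161 in zone 3 and fell by 1.35 ± 0.35 (adjusted p = 0.00649). CR4, the receptor kinase ACR4 of stem cell divisions, read 28.4 and 38.1 units in zone 2 and 4.93 and 2.52 in zone 3 and fell by 1.84 ± 0.41 (adjusted p = 0.00282). UPB1, a regulator of the change from division to elongation, read 543 and 339 units in zone 2 and 266 and 865 in zone 3. The zone 3 arrays enclosed both zone 2 arrays, with a step of 0.16 ± 0.51 (adjusted p = 0.81). SIM, an inhibitor of cyclin-dependent kinases that favours endoreduplication, read 1290.1 and 964 units in zone 2 and 1170.2 and 952 in zone 3 and was not called, at -0.08 ± 0.30 (adjusted p = 0.843). BIN4, needed for endoreduplication, read 67.9 and 111 units in zone 2 and 37.6 and 18.3 in zone 3 and fell by 1.46 ± 0.35 (adjusted p = 0.00397). The 2 genes listed for the quiescent centre, AGL42 and BBM, were not called, at 0.51 ± 0.31 (adjusted p = 0.195) and 0.63 ± 0.54 (adjusted p = 0.357). LHW was not called without zone 2 replicate 2 (-1.13) or zone 3 replicate 2 (-1.06). BIN4 was not called without zone 2 replicate 2 (-1.14).

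Root hair genes rose, in a piece cut below the first visible hairs. All 4 tested of 64 symbols listed rose, with a median of 2.99, and all 4 remained called without any 1 of the 4 arrays. Their summed intensity was 3059 and 2000.0 units in zone 2 and 10496 and 12132 in zone 3. SCN1, which confines hair growth to one site on the cell, read 1161 and 1125 units in zone 2 and 1981 and 2741 in zone 3 and rose by 1.02 ± 0.26 (adjusted p = 0.0054). CSLD2, EXPA7 and EXPA18, described above, are the other members. Genes of secondary walls and xylem vessels rose in 4 of 4 cases, of 45 symbols listed, with a summed intensity of 601 and 75.6 units in zone 2 and 5909 and 2175 in zone 3. PRX72, described above, made up most of that sum on zone 2 replicate 1 and on both zone 3 arrays. The secondary wall list gave 2 rises without zone 2 replicate 2 or zone 3 replicate 1. GUT2, also named IRX10, an enzyme of the xylan backbone, read 50.7 and 48.2 units in zone 2 and 276 and 127 in zone 3 and rose by 1.77 ± 0.39 (adjusted p = 0.00233). IRX15 was very low in zone 2, at 2.47 and 2.43 units in zone 2 and 46.2 and 12 in zone 3, and rose by 1.68 ± 0.59 (adjusted p = 0.0323). IRX15 was not called without zone 2 replicate 1 (1.68), zone 2 replicate 2 (1.68) or zone 3 replicate 1 (0.96).

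GSO1, a receptor kinase that seals the Casparian strip and the single endodermal marker tested of 21 listed, read 358 and 190.0 units in zone 2 and 2138 and 1500.1 in zone 3. It rose by 2.74 ± 0.35 (adjusted p = 9.81e-05). LBD16, a regulator of lateral root founder cells in the pericycle, read 21.3 and 6.29 units in zone 2 and 146 and 76.7 in zone 3 and rose by 2.50 ± 0.63 (adjusted p = 0.0054), while LBD29, at 1.09 ± 0.59 (adjusted p = 0.145), and PHV, at 0.32 ± 0.32 (adjusted p = 0.421), were not called. SWEET11, listed for phloem, read 28.4 and 27 units in zone 2 and 159 and 46.8 in zone 3. It rose by 1.43 ± 0.43 (adjusted p = 0.0147), with the higher value on zone 3 replicate 1. OPS, a phloem regulator, was not called, at 0.84 ± 0.42 (adjusted p = 0.114). The suberin gene FACT, at 0.19 ± 0.46 (adjusted p = 0.751), and the cortex and epidermis genes JKD, at 0.04 ± 0.35 (adjusted p = 0.926), and TRY, at -0.50 ± 0.56 (adjusted p = 0.48), were not called. GH9B6, the single root cap gene tested of 25 listed, read 8.79 and 2.53 units in zone 2 and 13.1 and 1.63 in zone 3, with a step of 0.10 ± 0.69 (adjusted p = 0.914). STZ, the single wound marker tested of 39 listed, read 24.6 and 7.43 units in zone 2 and 77.1 and 14.9 in zone 3, with a step of 0.99 ± 0.56 (adjusted p = 0.162). Of primary-wall cellulose genes, COB, an orienting factor, rose by 0.52 ± 0.20 (adjusted p = 0.047). The part of cell-type composition in any step above was not tested. LBD16 was not called without zone 2 replicate 2 (1.97). SWEET11 was not called without zone 2 replicate 2 (1.40) or zone 3 replicate 1 (0.62), and its step was 2.23 without zone 3 replicate 2. COB was not called without zone 2 replicate 2 (0.35), zone 3 replicate 1 (0.56) or zone 3 replicate 2 (0.48).

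The 12 largest decreases among genes whose arrays did not overlap had steps from -6.28 to -4.73 log2, and the 12 largest increases had steps from 4.93 to 5.85. AT2G41800 read 2232 and 2994 units in zone 2 and 52.6 and 89.6 in zone 3 and fell by 5.08 ± 0.44 (adjusted p = 2.65e-05). AT5G62340 read 3548 and 3767 units in zone 2 and 70.5 and 202 in zone 3 and fell by 4.84 ± 0.50 (adjusted p = 4.4e-05). AT1G73620 read 2621 and 3809.6 units in zone 2 and 43.5 and 211 in zone 3 and fell by 4.90 ± 0.62 (adjusted p = 9.41e-05). In all 3 genes both zone 3 values were a small share of those in zone 2, and zone 3 replicate 1 was the lower of its pair. The consecutively numbered loci AT1G52060 and AT1G52070 both belong to these 12. AT1G52060 read 1906 and 3243 units in zone 2 and 38.4 and 136 in zone 3, and AT1G52070 read 1005 and 1816 units in zone 2 and 15.2 and 61.3 in zone 3. Their falls were 4.94 ± 0.46 and 5.09 ± 0.44, and how far their probe sets cross-react was not tested. AT5G50740 fell by 4.80 ± 0.69 (adjusted p = 0.000172), and its other probe set fell by 3.46 ± 0.33 (adjusted p = 3.47e-05).

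The largest increases began from lower values on zone 2 replicate 2 than on replicate 1. AT3G49960 read 179 and 1.31 units in zone 2 and 2533 and 2187 in zone 3. AT1G30870 read 1011 and 40.8 units in zone 2 and 7157 and 7735 in zone 3, and AT1G19900 read 451 and 15.8 units in zone 2 and 3429 and 3807 in zone 3. In all 3 genes zone 2 replicate 1 lay far above its partner, while the zone 3 arrays lay close together. The steps were 5.85 ± 0.99 (adjusted p = 0.000486), 5.07 ± 1.03 (adjusted p = 0.00151) and 5.12 ± 1.00 (adjusted p = 0.00119). AT5G24313 read 29.5 and 1.14 units in zone 2 and 621 and 654 in zone 3 and rose by 5.15 ± 0.65 (adjusted p = 9.41e-05). AT3G45710 read 46.6 and 0.712 units in zone 2 and 1324 and 515 in zone 3 and rose by 5.28 ± 0.69 (adjusted p = 0.000105). The other members of these 12 are AT1G33700, AT1G30990, AT3G12540, GH9C1, EXPA18, WDL3 and PRX72. The step of AT3G49960 was 3.66 without zone 2 replicate 2. The step of AT1G30870 was 2.87 without zone 2 replicate 2. The step of AT1G19900 was 2.98 without zone 2 replicate 2.

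The same step was measured a second time on the -Fe arrays, which share no RNA with the 4 standard arrays. Both steps use the same spread per probe set, so calls on the 2 media are not independent of each other. There 3775 probe sets were higher in zone 3 (22.9%) and 4584 lower (27.8%), 50.6% in all. Of the probe sets called higher on standard medium, 3134 were called higher on -Fe medium too, 83.0% of each list. Of those called lower, 3796 were called lower on both, which is 84.8% of the standard list and 82.8% of the -Fe list. The steps had the same sign for 99.4% of the standard increases and 99.3% of the decreases. Across the 16505 probe sets the 2 sets of steps correlated at Pearson r = 0.939 and Spearman rho = 0.931, a description over genes that share arrays, which are not independent replicates. Among genes at 1 probe set each, 22.5% were higher and 29.0% lower there, 51.5% in all. All 14 ribosome production calls, all 6 histone calls, and 22 of the 24 replication calls recurred there in the same direction. All 7 pectin and xylan calls and all 13 TBL calls recurred as well, and 5 of 7 vacuolar ones. Other lists recurred less, with 0 of the 2 exocyst rises, 1 of the 2 named peroxidase rises and 3 of the 5 citrate cycle rises. Of the organelle RNA calls (5 falls and 1 rise) 3 recurred, and of the cytochrome P450 calls (7 rises and 1 fall) 5. From the auxin list (1 rise and 1 fall) 1 call recurred. On -Fe medium EXPA7 read 70.7 and 27.9 units in zone 2 and 4131 and 5191 in zone 3. Zone 2 replicate 1 lay below, and both zone 3 arrays above, their counterparts on standard medium. The step was 6.45 ± 0.80 (adjusted p = 4.58e-05), against 4.68 ± 0.80 on standard medium. The part of each zone in the gap between these steps was not tested.

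**Figure D4:**
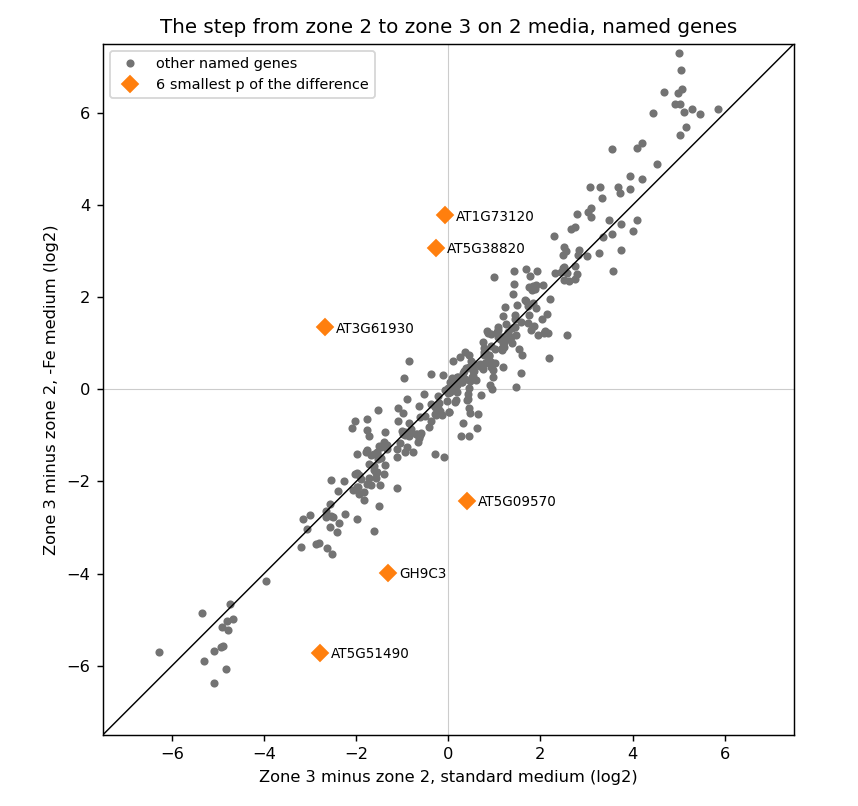
Steps (log2, zone 3 over zone 2) of the named genes on standard medium (horizontal) and on -Fe medium (vertical), 1 point per gene. Most points follow the diagonal, with GH9C3 and AT5G38820 among those farthest from it.

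The difference between the 2 media was itself tested, and it passed for a single probe set. By the sample descriptions standard roots were taken 1 h and -Fe roots 24 h after transfer, while the protocol gives 24 h for all. If the descriptions hold, time after transfer cannot be told apart from the medium. Lack of iron and presence of Ferrozine cannot be told apart either. Of 16505 tested, 1 step (0.00606%) was larger on -Fe medium and 0 smaller by limma at adjusted p under 0.05, and 474 had an unadjusted p under 0.05. The probe set, 250952_at, has no single gene in the annotation. It read 163 and 221 units in zone 2 and 117 and 40.8 in zone 3 on standard medium, and 129.6 and 97.5 units in zone 2 and 1042 and 1199.8 in zone 3 on -Fe medium. It was low in zone 3 of standard roots and high in zone 3 of -Fe roots, a difference of 4.57 ± 0.57 (adjusted p = 0.0443). Its standard step of -1.34 ± 0.40 (adjusted p = 0.0148) was not called without zone 2 replicate 2 (-1.13) or zone 3 replicate 2 (-0.66). The difference between media rested on single arrays. It passed for no probe set without zone 2 standard replicate 1, without zone 3 standard replicate 2 or without any 1 of the 4 -Fe arrays of zones 2 and 3, and for 1 without zone 2 standard replicate 2. Without zone 3 standard replicate 1 it passed for 13 probe sets with a larger and 2 with a smaller step on -Fe medium. It passed for none with no offset, with no filter, with no variance trend, or with the replicate number as a block within the 8 arrays of these zones. The named genes nearest to the threshold were AT5G38820, with a difference of 3.33 ± 0.47 (adjusted p = 0.0761), AT1G73120, with 3.84 ± 0.62 (adjusted p = 0.197), and GH9C3, with -2.68 ± 0.44 (adjusted p = 0.197). AT5G38820 read 163 and 122 units in zone 2 and 93.1 and 146 in zone 3 on standard medium, and 300.3 and 175 units in zone 2 and 2074 and 1908 in zone 3 on -Fe medium. GH9C3 read 83.6 and 96.9 units in zone 2 and 30.0 and 33.9 in zone 3 on standard medium, and 120.5 and 201 units in zone 2 and 1.87 and 3.5 in zone 3 on -Fe medium. A fall was called on both media for GH9C3, and none of these 3 differences passed. The step of 250952_at was -2.03 without zone 3 replicate 1.

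The neighbouring steps of standard roots share arrays with this one, so their values are set side by side without a measure of likeness. From zone 1 to zone 2, 1754 probe sets were higher in zone 2 (10.6%) and 1623 lower (9.83%), 20.5% in all. From zone 3 to zone 4, 542 were higher in zone 4 (3.28%) and 874 lower (5.3%), 8.58% in all. The 3 steps have the same number of arrays but not the same spread between replicates. Ribosome production genes had medians of -1.2, -1.95 and 0.28 log2 over the 3 steps in order, with 12 members lower in zone 2 than in zone 1, where 9.94% of all genes were higher and 10.4% lower, 20.3% in all. PRH75 had mean intensities of 3197, 1616, 172 and 237 units in zones 1 to 4. For histones the medians were -0.60, -1.65 and -0.16. HTB1 had means of 1444, 779, 222 and 100.1 units.

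Xyloglucan transglucosylases had medians of 1.32, 1.83 and -2.16 over the 3 steps. XTH16 had means of 133, 1132, 408 and 37.2 units in zones 1 to 4, highest in zone 2. TUB1 had means of 311, 2400.0, 2216 and 435, high in zones 2 and 3 and lower on both sides. FER had 326, 1024, 2221 and 1389 and CSLD2 438, 1033, 2539.8 and 1478, both highest in zone 3. EXPA7, at 50.6, 214, 3206 and 2024, stayed high in zone 4. IRX15-L, at 11.2, 30.2, 416 and 681, and GSO1, at 74.1, 274, 1819 and 1762, did so too. SIM, at 220.1, 1127, 1061 and 1842, was higher in zone 2 than in zone 1 by 2.31 log2 and was not called in the step to zone 3.

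**Figure D5:**
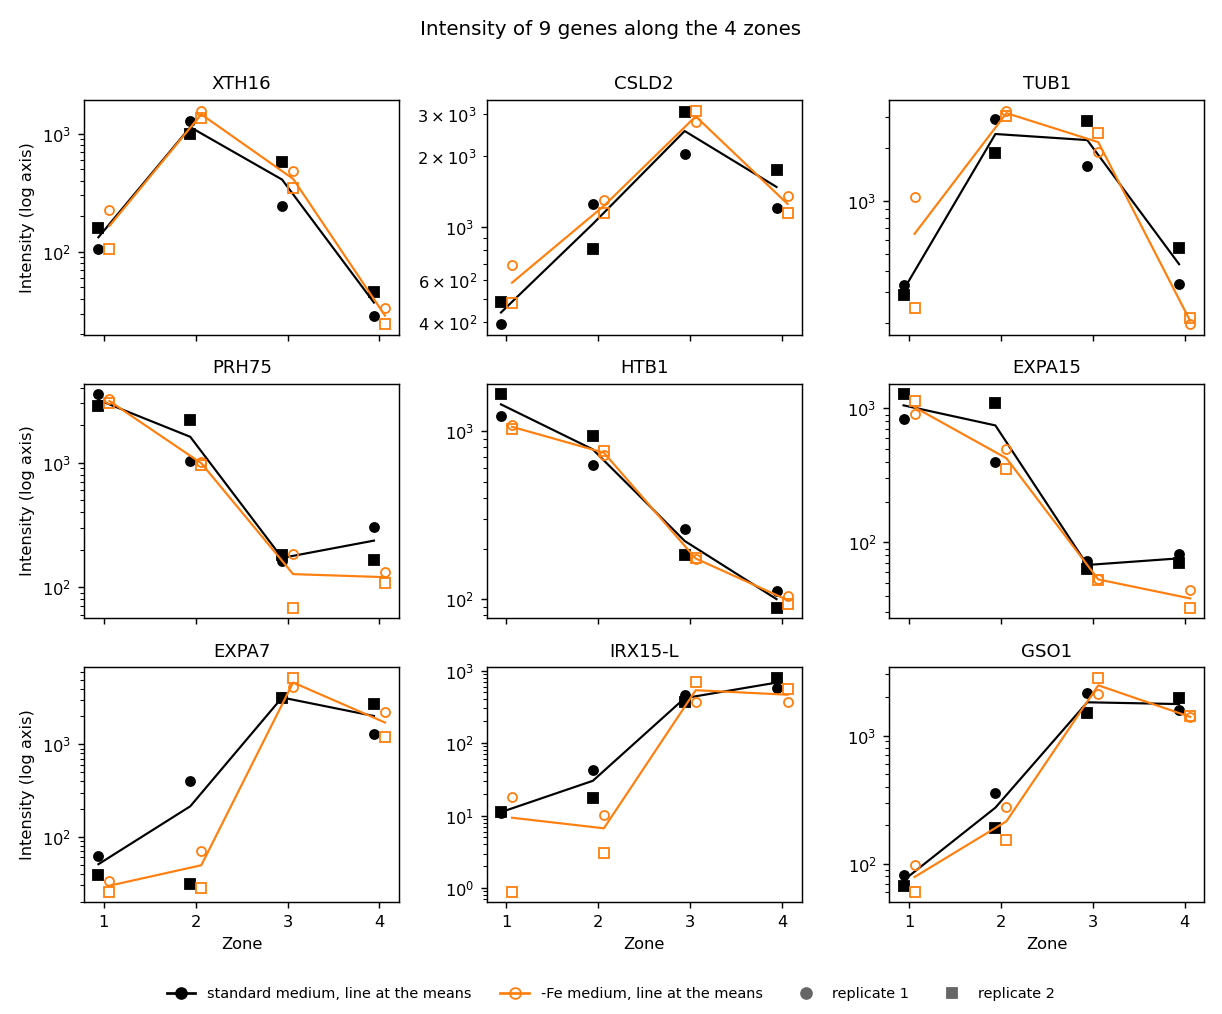
Intensity (log axis, array units) of 9 genes in zones 1 to 4, 1 point per array with lines through the means, standard and -Fe medium. The genes are XTH16, CSLD2, TUB1, PRH75, HTB1, EXPA15, EXPA7, IRX15-L and GSO1, and zones 2 and 3 are the ones compared here. PRH75 and HTB1 fall from zone 1 to zone 3, XTH16 peaks in zone 2, and EXPA7 and IRX15-L come up in zone 3.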

How the data were processed

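Total RNA of 16 root samples was amplified over 2 cycles and hybridised to ATH1 arrays of 22810 probe sets, per the labels. The deposited values are linear intensities per probe set, computed by the authors with MAS5, per the submitters' processing notes, with no version given in the sources used here. The trimmed mean of every array, between its 2nd and 98th percentile, was 250 units, so values are relative to the whole array. The 64 control probe sets were left out. Intensities were taken to log2(intensity + 7.73), the added value being the 20th percentile of all deposited intensities. Probe sets above the 40th percentile of their array on at least 2 arrays were kept (16505 of 22746), so a gene may have passed through the zone where it is high. limma 3.58.1 in R 4.3.3 fitted 8 group means with a variance trend over 16 arrays (8 residual degrees of freedom), was tested on simulated data, and adjusted p-values by Benjamini-Hochberg within each comparison over all probe sets. With 2 arrays a group, the number of arrays limits the precision.

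The platform annotation gave 13513 probe sets 1 gene, 503 several and 8730 none listed here; 13436 of the first matched RefSeq loci (assembly TAIR10.1). Each gene was represented by its brightest probe set. Genes named were the 12 largest increases and decreases with arrays that do not overlap, members of lists (all where a list has up to 8 members, otherwise the 4 brightest and the 3 with the largest step each way), and the 6 with the smallest p for the difference between media. Not each of these is printed, and UGT72E1 is given beside its relatives outside this rule. Members and lists were chosen with earlier results of these data known, and most lists were drawn from the annotation after the files were read. The second call rule was limma's treat. Alternatives were other offsets, filters, scalings, array sets, array weights, replicate blocks and leaving out each array. Promoter motifs were not analysed here.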

Additional observations from a re-analysis of the deposited data

Results flagged for a closer look

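Probe set 250952_at, with no single gene annotated, had a zone 2 to zone 3 step that was higher on -Fe than on standard medium, and the test of that difference between the media passed (4.57 ± 0.57, adjusted p = 0.0443, limma). By the sample descriptions the media also differ in time after transfer, which cannot then be told apart from the medium. The difference passed for no probe set without zone 2 standard replicate 1, without zone 3 standard replicate 2 or without any 1 of the 4 -Fe arrays of zones 2 and 3, nor with no offset, no filter or no variance trend.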

How the results depend on the processing

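The standard step gave 3774 probe sets higher and 4475 lower. The counts lay within 1.5 times of these under other offsets, filters, scalings and variance settings, with array weights and with standard arrays only, and moved further in 3 settings. Leaving out 1 array gave 2318 to 3982 higher and 2927 to 4420 lower, the lowest without zone 2 replicate 2. The 4 arrays alone gave 2564 higher and 2905 lower, and limma's treat above 1 log2 gave 1106 and 994. For the -Fe step treat gave 1447 higher and 1195 lower, and leaving out 1 array gave 2893 to 4031 and 3187 to 4877. The difference between media held for 1 probe set, for 0 with no offset, no filter, no variance trend or treat, and for 0 to 13 larger and 0 to 2 smaller without 1 array. With the replicate number as a block the standard step gave 4024 higher and 4663 lower over 16 arrays and 3621 and 3964 within the 8 zone 2 and zone 3 arrays, and the difference between media 2 and 0 larger. The labels do not say that a replicate number marks a shared batch, and with 2 numbers a group the arrays were treated as sharing only a number. Deviations of same-numbered arrays correlated at 0.16 between the standard zones 2 and 3, at 0.18 to 0.37 between the media within a zone, and at -0.126 to 0.465 over all pairs of groups. Of 209 genes named in the text whose standard step was followed through these settings, none reversed. The largest loss of calls was under limma's treat above 1 log2, for 84 genes, and standard arrays only lost 11. Calls were lost for 34 without zone 2 replicate 2, 25 with the 4 arrays alone, 19 without zone 3 replicate 1, 18 with array weights, 8 under median centring and 1 under quantile normalization. The median of all steps was -0.06, and -0.11 under quantile normalization. The cause of these shifts was not tested beyond the smaller number of arrays. Intensities below about 7.73 units carry little information on the size of a step.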
